A study of Mus musculus with 30 samples.

Results

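The genes described here are 36 genes of the oligodendrocyte lineage and of myelin, the wrapping that oligodendrocytes lay around axons. They were taken by symbol from an array that measured 36717 genes and transcripts, of which 21368 carried a gene symbol, and all 36 were found. They comprised 6 precursor and premyelinating genes, 3 lineage transcription factors and 27 genes of the myelinating stage. Expression was measured in 2 tissues of each of 15 mice aged 15 to 20 months, the hippocampus and the brain without the hippocampus (called brain from here on), so that there were 30 arrays. Which 2 arrays belong to a mouse was read from the number that they share in the labels. All mice were given the strain C57BL/6j and were perfused before the tissue was taken. The study's methods call the 3xTgAD mice congenic, but the stock names given there for the 3xTgAD and JHT lines include another strain. Whether the strain background differed between the genotypes was not tested.

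There were 4 genotypes. WT mice (3 females) carried none of the alleles below. JHT mice (2 females) lack the immunoglobulin JH locus in every cell and therefore have no functional B cells. 3xTgAD mice (2 females and 3 males) model early-onset Alzheimer's disease with mutant human APP and tau transgenes, which are driven in neurons, and a mutant presenilin-1 gene. 3xTgAD-BKO mice (2 females and 3 males), called JHT_3xTgAD in the labels, carry the Alzheimer's alleles together with the JHT deletion. WT and JHT mice were female only, so genotypes were compared within a sex. The study asked what the loss of B cells changes in the brain of mice with Alzheimer's-like disease.

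Oligodendrocyte precursors divide under the receptor Pdgfra and carry the proteoglycan Cspg4, also known as NG2. As they leave the cycle they pass through a short premyelinating stage marked by the receptor Gpr17, the choline phosphodiesterase Enpp6 and Bcas1, and the homeodomain factor Nkx2-2 takes part in their differentiation. Sox10, Olig1 and Olig2 are made through the whole lineage. The factor Myrf then switches on the genes of myelin itself, such as Mbp, Mog, Mag and Cnp, and the enzymes of its lipids, such as Ugt8a, Fa2h and Gal3st1.

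The 250 bases before the start listed in the table of promoters are shown for 3 members on which the results below turn: Hapln2, which was lowest in hippocampus relative to brain, Cspg4, which was highest, and Nkx2-2, which was the one member that passed the test between 3xTgAD and WT mice. The sequences are those of RefSeq (GRCm38.p6), 5′ to 3′ on the strand of the gene, at chr3:88027512-88027761 (minus strand), chr9:56864854-56865103 (plus strand) and chr2:147186403-147186652 (minus strand). The Nkx2-2 sequence lies within the annotated gene, before one of its starts. Capitals mark matches on either strand to CAGCTG (an E-box of the kind that Olig factors bind), ACAAT (the core that SOX factors bind) and CTGGCAC (a form of the motif described for MYRF).
Hapln2: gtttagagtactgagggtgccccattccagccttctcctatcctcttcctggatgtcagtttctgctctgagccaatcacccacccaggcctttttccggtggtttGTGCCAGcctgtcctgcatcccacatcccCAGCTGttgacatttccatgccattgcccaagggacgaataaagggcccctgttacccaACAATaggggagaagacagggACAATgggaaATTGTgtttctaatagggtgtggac
Cspg4: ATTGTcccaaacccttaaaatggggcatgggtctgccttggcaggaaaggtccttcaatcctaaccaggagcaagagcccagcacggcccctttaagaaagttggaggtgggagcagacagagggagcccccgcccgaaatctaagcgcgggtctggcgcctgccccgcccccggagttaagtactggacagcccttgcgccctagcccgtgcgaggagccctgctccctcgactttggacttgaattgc
Nkx2-2: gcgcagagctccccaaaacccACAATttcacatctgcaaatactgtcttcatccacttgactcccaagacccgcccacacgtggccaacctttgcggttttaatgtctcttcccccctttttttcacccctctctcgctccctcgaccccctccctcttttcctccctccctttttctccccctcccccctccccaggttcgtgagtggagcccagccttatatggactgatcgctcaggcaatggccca

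The Hapln2 sequence held 1 E-box, 3 SOX cores and 1 CTGGCAC. The other 2 sequences each held 1 SOX core. Of all 32851 promoters of this length in the table, 13% held the E-box, 27.7% the SOX core and 4.19% CTGGCAC. Of the 33 promoters listed for 26 of the members, 2 (6.06%) held the E-box, 10 (30.3%) the SOX core and 5 (15.2%) CTGGCAC. A match is a description of letters and not a measured binding site.

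Levels are log2 normalized intensities of the brightest probe of a gene, so a difference of 1 is a doubling, and levels of different genes are not compared. A member was called where limma's adjusted p was under 0.05 over all 36717 genes and transcripts, and the SE beside a difference is limma's. The mice are the replicates, and a p measures the spread between mice. The 36 members were well above background on all 30 arrays, except Enpp6 (29 arrays) and Myrf (16 arrays), and none was saturated. The Myrf arrays included none of 3 WT and none of 2 JHT hippocampi, and none of 2 JHT and none of 2 3xTgAD-BKO female brains. Myrf differences between such groups were read at background. The 75th percentile of processed intensity was 454 to 824 on the hippocampal arrays and 841 to 1636 on the brain arrays. One array stood apart: the hippocampal array of 3xTgAD-BKO male replicate 0 had 432 outlier spots, against 102 to 160 on the others, and the number of calls between the tissues and the male hippocampal differences are also given without it. Slides carried the groups unevenly. In each tissue the 3xTgAD and WT females lay on different slides, whereas the females of 3xTgAD and 3xTgAD-BKO shared a slide, as did those of WT and JHT. The Schwann cell marker Pmp2, which peripheral myelin uses, was well above background on no brain array. In whole tissue, fewer cells of a type and less RNA per cell cannot be told apart.

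The main difference in these genes lay between the tissues. Of 27 myelinating-stage genes, 18 were lower in hippocampus than in brain and 1, Mbp, was higher, whereas the precursor genes were split, with Cspg4 higher in hippocampus in every mouse. Of the 36 members, 26 (72.2%) were called, 22 of them lower (61.1%) and 4 higher (11.1%) in hippocampus. Over all genes and transcripts, 51.1% were called, 26.0% lower and 25.1% higher. The median difference of the members was -0.38 and that of all genes 0. The sign of some differences depends on the scaling: with quantile normalization within each tissue the median of all genes itself moved by -0.77, and 34 members were called lower and none higher. Those calls include the shift of all genes. Relative to that median, 31 of the 36 members were lower and the rest were at or above it.

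**Figure D1:**
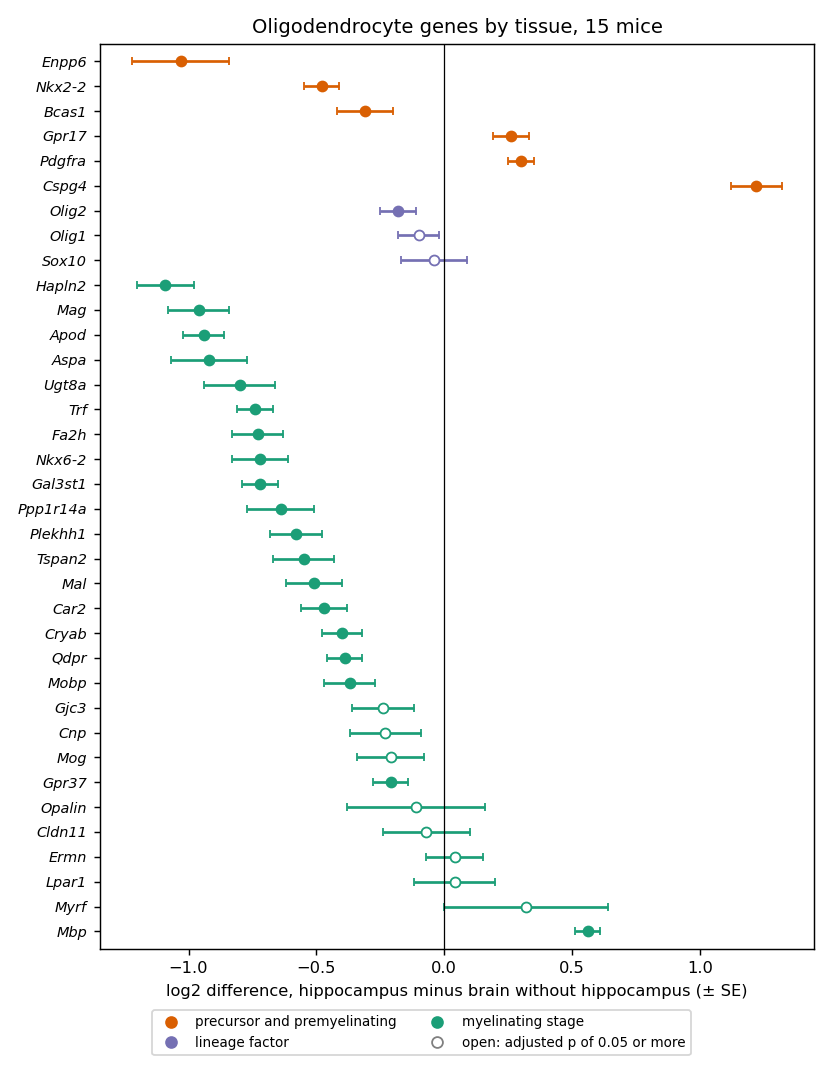
Log2 difference between hippocampus and brain (x axis, hippocampus minus brain, with limma's SE as the bar) for the 36 members, coloured by stage, with open points where the adjusted p was 0.05 or more. Most myelinating-stage genes lie left of 0, down to Hapln2 at -1.09, while Mbp at 0.56 and Cspg4 at 1.22 lie on the right.

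Of the 6 precursor and premyelinating genes, 3 were higher and 3 lower in hippocampus. Cspg4 ranged from 9.83 to 10.56 in the 15 hippocampi (median 10.18) and from 8.41 to 9.78 in the 15 brains (median 8.91). The ranges did not overlap, and the difference was 1.22 (SE 0.10, adjusted p = 2.23e-09), a 2.33-fold higher level. Set against the median of all genes, it came to 0.95 when arrays were scaled to their 75th percentile and to 0.96 when tissues were normalized apart. With the slide as a block the difference was 0.31 (adjusted p = 0.579). Pdgfra was higher by 0.30 (SE 0.05, adjusted p = 3.62e-05), with 10.85 to 11.37 in hippocampus (median 11.04) and 10.59 to 11.01 in brain (median 10.69), and was higher in all 15 mice, but relative to the median of all genes it was 0 under both of those scalings. Gpr17 was higher by 0.26 (SE 0.07, adjusted p = 0.00545), with overlapping ranges of 12.37 to 13.02 and 11.94 to 12.84, and its relative difference was -0.01 and 0 under the same scalings. Pdgfra and Cspg4 are also made by fibroblasts and pericytes. Of 5 meningeal fibroblast markers 2 were higher and 3 lower in hippocampus, and of 4 pericyte markers 1 was higher and 1 lower, and their part in these differences was not tested.

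The other 3 of this stage were lower in hippocampus. Enpp6 ranged from 4.70 to 7.27 in hippocampus (median 6.07) and from 6.54 to 7.86 in brain (median 7.21). It was lower in the hippocampus of all 15 mice, and the difference was -1.03 (SE 0.19, adjusted p = 0.000106). Nkx2-2 differed by -0.48 (SE 0.07, adjusted p = 6.74e-06) and was lower in all 15 mice. Bcas1 differed by -0.31 (SE 0.11, adjusted p = 0.025) and was lower in 13. Of the lineage factors Olig2 was called, at -0.18 (SE 0.07, adjusted p = 0.042), while Olig1 (-0.10, SE 0.08) and Sox10 (-0.04, SE 0.13) were not. The Olig2 call was lost in 11 of the 15 fits that left out 1 mouse (adjusted p = 0.052 to 0.149) and with normexp background correction (-0.14, adjusted p = 0.144).

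The other 8 myelinating-stage genes did not pass, and the median difference of all 27 was -0.47. Hapln2 encodes a link protein of the matrix at the nodes of Ranvier. It ranged from 7.62 to 9.32 in hippocampus (median 8.71) and from 9.39 to 10.02 in brain (median 9.76), without overlap, a difference of -1.09 (SE 0.11, adjusted p = 5.61e-08). Mag, an adhesion molecule of the innermost myelin layer, ranged from 12.44 to 14.22 in hippocampus (median 13.67) and from 14.39 to 14.85 in brain (median 14.58). These ranges did not overlap either, and the difference was -0.96 (SE 0.12, adjusted p = 8.01e-07). Apod, a lipid carrier, ranged from 15.50 to 16.57 in hippocampus and from 16.81 to 17.42 in brain, a difference of -0.94 (SE 0.08, adjusted p = 2.07e-09). Aspa, which splits N-acetylaspartate in oligodendrocytes, ranged from 8.92 to 11.30 in hippocampus (median 10.42) and from 10.58 to 11.67 in brain (median 11.38), and differed by -0.92 (SE 0.15, adjusted p = 2.69e-05).

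The enzymes that make or use myelin's small molecules and lipids moved together. All 4 were called lower in hippocampus, Aspa as above, Ugt8a (galactosylceramide synthesis) by -0.80, Fa2h (fatty acid 2-hydroxylation) by -0.73 and Gal3st1 (sulfatide synthesis) by -0.72. Of the 12 myelin sheath proteins, 5 were lower, 1 was higher and 6 did not pass. Among those that did not pass, Mog differed by -0.21 (SE 0.13, adjusted p = 0.21) and Cnp by -0.23 (SE 0.14, adjusted p = 0.179), each lower in the hippocampus of 10 of 15 mice. Both passed when the mouse was a block that paired its tissues (adjusted p = 0.0437 and 0.0171). Myrf differed by 0.32 (SE 0.32, adjusted p = 0.441) and was near background. It passed as higher, at 0.71 (adjusted p = 0.047), with 75th-percentile scaling, which itself moved the median of all genes by 0.30. Of the 9 other genes of mature oligodendrocytes, 8 were lower, including Trf, the iron carrier transferrin, which did not overlap between the tissues (15.32 to 16.30 against 16.37 to 16.96).

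Mbp, a main protein of compact myelin, went the other way. It ranged from 13.38 to 13.91 in hippocampus (median 13.60) and from 12.87 to 13.24 in brain (median 13.02). The ranges did not overlap, and Mbp was higher in the hippocampus of all 15 mice, by 0.56 (SE 0.05, adjusted p = 2.83e-08), and by 0.31 and 0.32 relative to the median of all genes with scaling to the 75th percentile and within each tissue. Without that subtraction the difference was -0.45 with normalization within each tissue. The other 2 Mbp probes, which are listed under another transcript of the gene, differed by 0.36 and 1.53, also higher in hippocampus. The probe used had its highest hippocampal value, 13.91, in 3xTgAD-BKO male replicate 8. In that hippocampus 25 of the 27 myelinating-stage genes lay below their group mean. Which Mbp transcripts each probe reads was not tested. Probes of one gene did not always agree. A second Ermn probe differed by -0.87, where the brighter one gave 0.03, and a second Tspan2 probe by 0.46, where the brighter one gave -0.54.

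**Figure D2:**
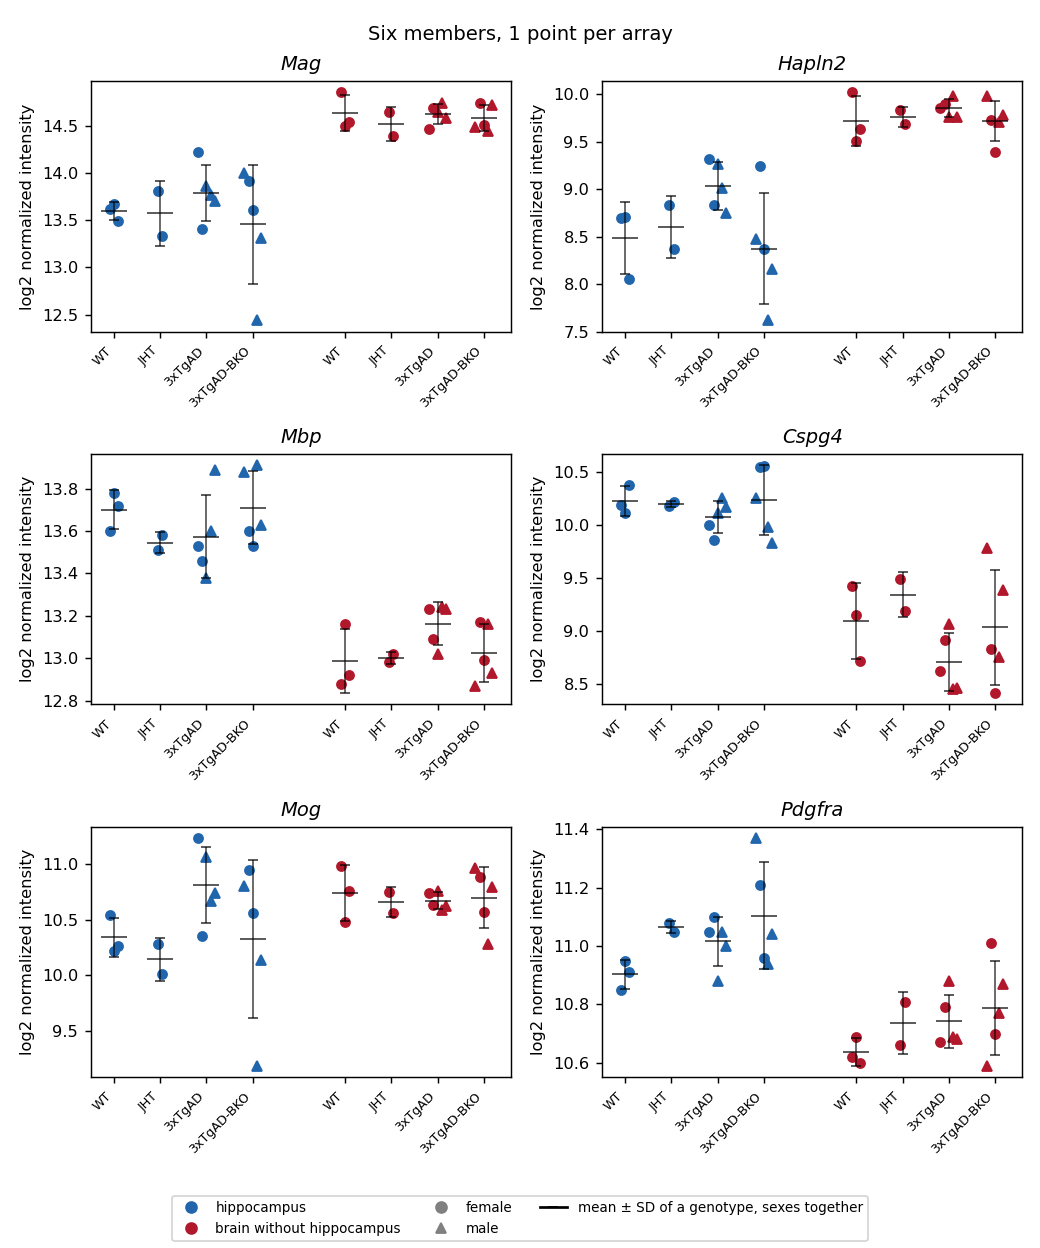
Log2 normalized intensity (y axis) of Mag, Hapln2, Mbp, Cspg4, Mog and Pdgfra on each array by tissue and genotype, circles for females and triangles for males, with the mean ± SD of each genotype over both sexes. Hippocampal and brain arrays do not overlap for Mag, Hapln2, Mbp and Cspg4, and they overlap for Mog and Pdgfra.

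The groups of genotype and sex, which together make up the tissue difference, differed in its size. Mag was lower in hippocampus in 6 of 6 groups, by -1.30 to -0.77, and Hapln2 in 6 of 6, by -1.73 to -0.75. Mbp was higher in 6 of 6, by 0.33 to 0.82, and Cspg4 in 6 of 6, by 0.72 to 1.93. The ranges of Mag, Hapln2, Mbp and Cspg4 did not overlap over all arrays, so their sign in each group was fixed in advance. Among called members without that property, Gpr17 was above 0 in 5 of 6, from -0.01 to 0.60. Gpr37 was below 0 in 5 of 6, from -0.49 to 0.17, and Mobp in 5 of 6, from -0.71 to 0. Tissue and slide were almost confounded, and 1 slide held 7 hippocampal arrays and 1 brain array. On that slide the brain array lay above all 7 hippocampal arrays for 18 of the 22 members called lower, and below all of them for 4 of the 4 called higher. For Cspg4 the gap was narrow, 9.78 against a lowest hippocampal value of 9.83. That brain array also entered the calls themselves, and the same count was not made over all genes, so it is no separate test. The brain array was that of a 3xTgAD-BKO male (replicate 0), and the hippocampal arrays were those of 2 other 3xTgAD-BKO males, 3 WT females and 2 JHT females, so genotype and sex differ there along with tissue. With the slide as a block 23 members (63.9%) were called, 22 lower and Mbp higher, against 18% of all genes, but that fit links the tissues through this 1 brain array alone. Pdgfra, Cspg4, Gpr17, Bcas1, Nkx2-2, Mobp, Qdpr, Cryab and Gpr37 were no longer among them. Of these, Pdgfra kept its size at 0.29 (adjusted p = 0.214) and Gpr17 was larger at 0.57 (adjusted p = 0.117), unlike Cspg4. In their place Sox10, Cldn11, Opalin, Gjc3, Mog (-1.28, adjusted p = 0.0354) and Cnp (-1.70, adjusted p = 0.00241) were added as lower. Without the hippocampal array of 3xTgAD-BKO male replicate 0, 29 members (80.6%) were called, against 53.7% of all genes. Among them were Mog (-0.27, adjusted p = 0.0485) and Cnp (-0.31, adjusted p = 0.0253).

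Other genes of the lineage were read from a list of 33. Of 21 further myelinating-stage genes, 16 were lower in hippocampus, 1 was higher and 4 did not pass, with a median of -0.41. Klk6, a secreted protease, ranged from 4.55 to 8.55 in hippocampus (median 7.30) and from 9.98 to 11.37 in brain (median 10.86), and differed by -3.67 (SE 0.23, adjusted p = 4.73e-11). Serpinb1a differed by -1.05 (SE 0.11, adjusted p = 8.92e-08), and Tppp, a tubulin-binding protein, was higher by 0.31 (SE 0.04, adjusted p = 1.13e-06). Of 12 further precursor or premyelinating genes, 2 were higher, 4 were lower and 6 did not pass, with a median of -0.20. Lhfpl3 differed by -1.41 (SE 0.07, adjusted p = 2.92e-12), Ptprz1, a receptor phosphatase, by 0.55 (SE 0.05, adjusted p = 2.1e-08) and Tcf7l2, a Wnt effector of the premyelinating stage, by 0.31 (SE 0.07, adjusted p = 0.000359). Markers of other cells differed too: of 9 neuronal markers 3 were higher and 5 lower in hippocampus (Slc17a7 1.32, Gad1 -0.83), of 8 astrocyte markers 2 and 5, of 6 microglial markers 4 and 0, of 4 endothelial markers 1 and 0, and of 5 choroid plexus markers 0 and 3. Their part in the members' differences was not tested.

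The members also varied more among hippocampi than among brains. The median SD within groups was 0.39 for the 36 members in hippocampus and 0.17 in brain, and 33 of 36 had the larger SD in hippocampus. Over 19491 genes well above background on all arrays the medians were 0.19 and 0.14, and 67.8% had the larger SD in hippocampus. In hippocampus the myelinating-stage genes deviated together: the median pairwise correlation of their deviations from the group means, over 15 arrays that these genes share, was 0.80, against 0.24 in brain. Without the 3xTgAD-BKO males the correlations were 0.68 and 0.21, and the members' median SDs 0.24 and 0.15. Cspg4 was an exception, with an SD of 0.13 in hippocampus and 0.37 in brain.

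Much of this spread lay in the 3 hippocampi of 3xTgAD-BKO males. In replicate 0, the array with many outlier spots, the median deviation of the 27 myelinating-stage genes from their group mean was 0.65, and 26 of 27 lay above it. In replicate 8 the median was -0.48, and 25 of 27 lay below. Replicate 9 was near the mean, at -0.02. Opalin, a membrane protein of myelinating cells, was at 10.26, 6.60 and 8.4 in replicates 0, 8 and 9, and Mog at 10.80, 9.19 and 10.14. The median level of the choroid plexus markers was 7.62 to 9.67 on these 3 arrays, within a span of 7.47 to 14.03 over all hippocampi and 10.36 to 11.58 over all brains. Markers of other cells also deviated, and the values that follow are those of replicates 0, 8 and 9. The median deviation of the choroid plexus markers was 0.75, -1.09 and 0.18, that of the meningeal fibroblast markers 0.62, -0.80 and 0.08 and that of the pericyte markers 0.23, -0.32 and 0.01. For microglia it was 0.36, 0.01 and -0.36, for endothelium 0.20, 0.02 and -0.26, for astrocytes 0.13, -0.07 and 0 and for neurons -0.13, 0.08 and 0.03. Their part in the spread was not tested.

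**Figure D3:**
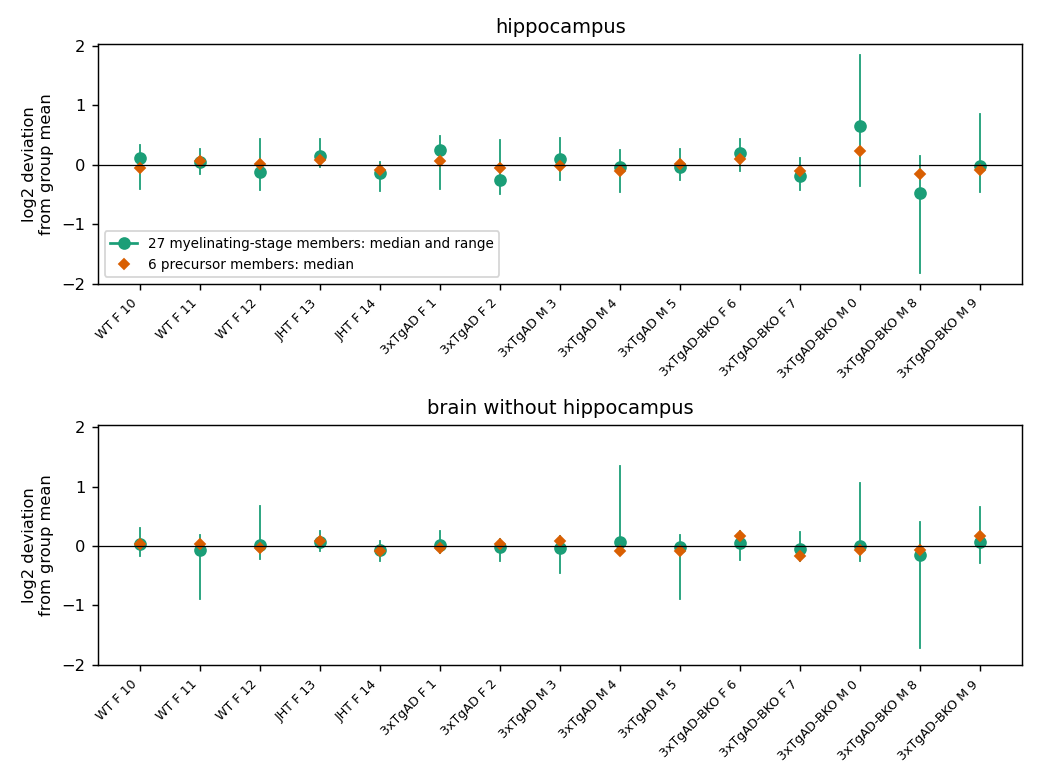
Deviation of the myelinating-stage genes from their group mean on each array (y axis, log2), in hippocampus (top) and brain (bottom): green points and lines are the median and range over 27 genes, orange diamonds the median over 6 precursor genes. The widest departures are 3xTgAD-BKO male replicates 0 (0.65) and 8 (-0.48) in hippocampus, and in groups of 2 mice the deviations mirror each other.

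Between 3xTgAD and WT females, the comparison of the disease model with its control, Nkx2-2 was lower in both tissues and no other member passed. In hippocampus Nkx2-2 was at 7.21 and 7.25 in the 3xTgAD females (n = 2) and at 8.10, 8.24 and 8.25 in the WT females (n = 3). The 3xTgAD values lay below all WT values, and the difference was -0.96 (SE 0.18, adjusted p = 0.0463). In brain Nkx2-2 was at 7.73 and 7.71 against 8.56, 8.43 and 8.48, again without overlap, a difference of -0.77 (SE 0.15, adjusted p = 0.0434). One member of 36 is 2.78%, where 0.746% of all genes were called in hippocampus and 1.15% in brain. The second, dimmer Nkx2-2 probe differed by -0.32 and -0.17. The adjusted p rose to 0.43 in hippocampus and 0.298 in brain with the mean of both probes, and it was 0.05 or more in both tissues without any one of the 5 mice. The call in hippocampus was also lost without the array of 3xTgAD-BKO male replicate 0, which the fit uses for the spread (adjusted p = 0.0504). These groups lay on different slides, and a slide block, which links their slides only through the 3xTgAD-BKO males, gave -1.07 (adjusted p = 0.0725) in hippocampus and -0.69 (adjusted p = 0.329) in brain. Over all alternatives on the log2 scale the adjusted p ran from 0.00319 to 0.43 in hippocampus and from 0.0201 to 0.329 in brain, and the difference stayed negative.

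The other 4 groups did not enter this difference. The 3xTgAD males were at 8.03, 7.37 and 7.31 in hippocampus and at 8.27, 7.78 and 7.66 in brain, so that replicate 3 was the high one in each tissue. The 3xTgAD-BKO females were at 7.96 and 7.91 in hippocampus and at 8.52 and 8.38 in brain, and the 3xTgAD-BKO males at 7.70, 7.48 and 7.72 and at 8.42, 8.34 and 8.42. The JHT females were at 7.93 and 7.88 and at 8.46 and 8.27. All 3 genotypes other than 3xTgAD had brain values of 8.27 or above.

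**Figure D4:**
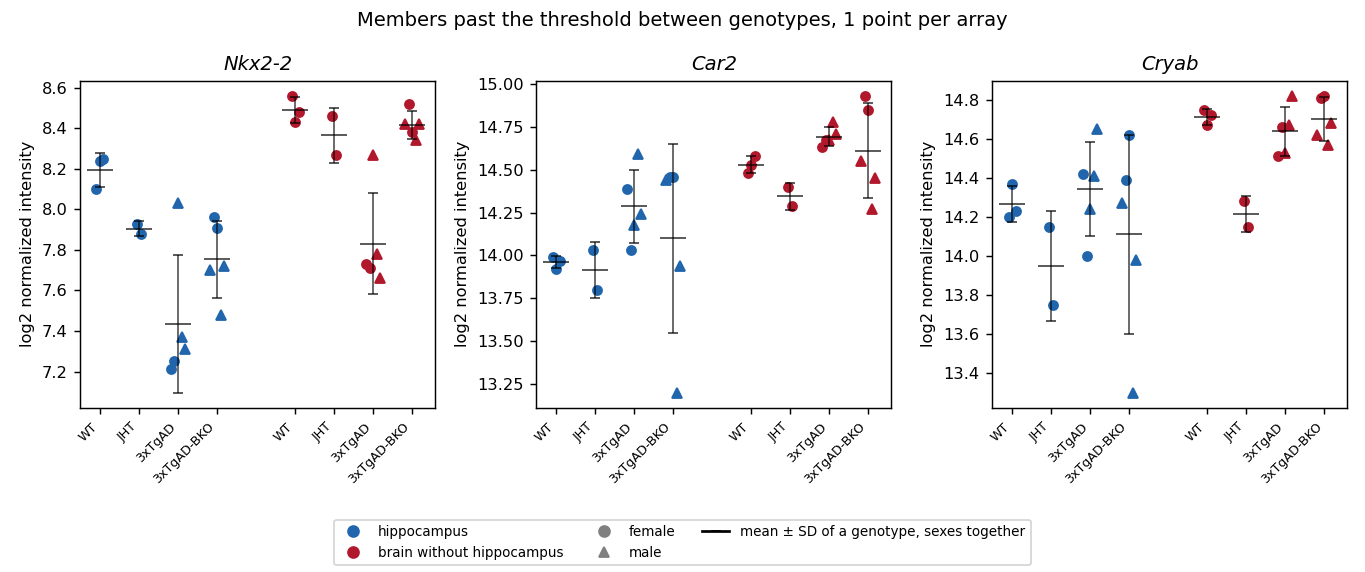
Log2 normalized intensity (y axis) of Nkx2-2, Car2 and Cryab on each array by tissue and genotype, circles for females and triangles for males, with the mean ± SD of each genotype over both sexes. For Nkx2-2 in brain, 4 of 5 arrays of 3xTgAD mice lie at 7.66 to 7.78 and the other at 8.27, and the arrays of the other genotypes lie at 8.27 or above. In hippocampus the 3xTgAD-BKO males, at 7.48 to 7.72, lie within the range of the 3xTgAD mice, 7.21 to 8.03.

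The myelin genes themselves did not pass in this comparison. In hippocampus 24 of the 27 myelinating-stage genes had a difference above 0, from -0.20 to 1.10 with a median of 0.41 (all genes -0.01), yet none was called, and Opalin, at 1.10, had an SE of 0.80. Several of these values changed sign with the setting. With the slide as a block Cnp was at -1.24, Mag at -0.91, Mog at -0.68 and Myrf at -0.71, none of them called. Without 3xTgAD replicate 1, Mog was at 0.01, Mag at -0.19 and Cnp at -0.28, and without 3xTgAD replicate 2 they were at 0.90, 0.62 and 0.41. In brain the median of the myelinating-stage genes was -0.05. There Opalin, Tspan2 and Aspa passed as higher with the slide as a block, a fit that links the 2 slides through 1 3xTgAD-BKO male on each. The differences in hippocampus were 0.18 for Pdgfra, -0.09 for Gpr17, 0.33 for Olig2, 0.71 for Myrf, -0.20 for Mbp, 0.45 for Mog, 0.22 for Mag and 0.07 for Cnp, with adjusted p of 0.521 or more. In brain they were 0.09, -0.17, 0.18, -0.12, 0.18, -0.05, -0.05 and -0.12 in the same order. Of the 33 further lineage genes none was called in either tissue. Among the endothelial markers, 4 of 4 had a difference below 0 in hippocampus, Cldn5 being called at -1.22 (adjusted p = 0.0463). The median level of those markers was 10.10 to 10.18 in the 3xTgAD and 10.70 to 11.12 in the WT hippocampi. In hippocampus the pericyte markers were at 10.41 to 10.47 against 10.72 to 10.95 (4 of 4 below 0), the choroid plexus markers at 9.98 to 10.15 against 7.47 to 9.46 (5 of 5 above 0) and the meningeal fibroblast markers at 9.32 to 9.68 against 8.73 to 9.29 (although 4 of 5 single markers were below 0). In brain, where Nkx2-2 was also called, the endothelial markers were at 10.35 to 10.38 against 10.87 to 11.17 and the pericyte markers at 10.36 to 10.49 against 10.65 to 10.79, each with 4 of 4 below 0. The part of these cells in the Nkx2-2 difference was not tested.

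**Figure D5:**
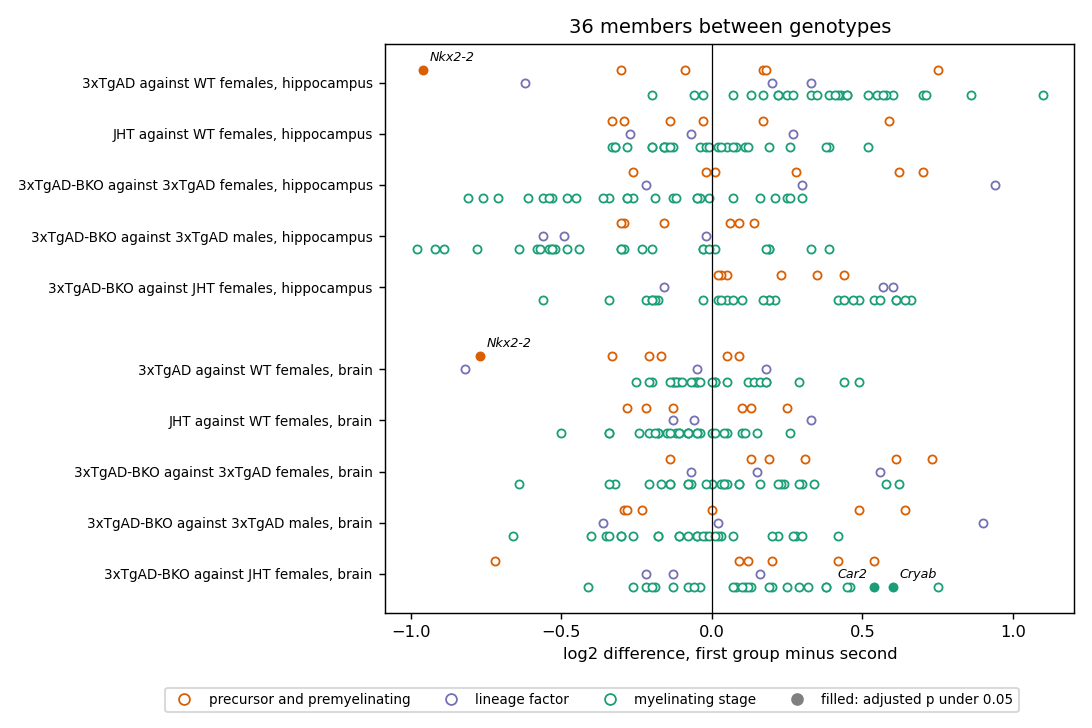
Log2 difference of each of the 36 members (x axis, first group minus second) in 10 comparisons of genotypes, coloured by stage, with filled points where the adjusted p was under 0.05. The filled points are Nkx2-2 in 3xTgAD against WT females (-0.96 in hippocampus, -0.77 in brain) and Car2 (0.54) and Cryab (0.60) in 3xTgAD-BKO against JHT females in brain.

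The loss of B cells in the disease model was read from 3xTgAD-BKO against 3xTgAD mice, which share their 3xTgAD females with the comparison above. No member was called in either sex or tissue. In hippocampus of females 0.370% of all genes were called, and at an unadjusted p under 0.05 there were 4 members (11.1%) against 16.4% of all genes. The members with the smallest p were Cspg4, Nkx2-2 and Sox10. Cspg4 was at 10.55 and 10.56 in 3xTgAD-BKO and at 10 and 9.86 in 3xTgAD females, a difference of 0.62 without overlap (adjusted p = 0.103). Cspg4 passed without the hippocampal array of 3xTgAD-BKO male replicate 0 or with the slide as a block (adjusted p = 0.0394 in both). All 5 meningeal fibroblast markers had a difference above 0 here, with a median of 1.35, and the pericyte markers had a median of 0.38, and their part in the Cspg4 difference was not tested. Nkx2-2 differed by 0.70 (adjusted p = 0.159), and its second probe by -0.08. Sox10 was at 12.30 and 12.09 against 11.51 and 11, a difference of 0.94 (adjusted p = 0.25). The endothelial markers were at 10.63 to 10.68 against 10.10 to 10.18 and the neuronal markers at 13.71 to 13.77 against 13.39 to 13.51. The part of these cells in the Nkx2-2 and Sox10 differences was not tested. Differences of the myelinating-stage genes ran from -0.81 to 0.30 with a median of -0.26, among them 0.07 for Mbp, -0.04 for Mog, -0.05 for Mag, 0.26 for Cnp and -0.45 for Myrf, while Pdgfra differed by 0.01, Gpr17 by -0.02 and Olig2 by -0.22.

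In brain of females 1.12% of all genes were called, and 8 members (22.2%) had an unadjusted p under 0.05, against 12.9% of all genes. Nkx2-2 differed by 0.73 (adjusted p = 0.0743), and its 3xTgAD-BKO values of 8.52 and 8.38 lay above the 3xTgAD values of 7.73 and 7.71. The second probe differed by 0.15. Ugt8a was at 11.09 and 10.85 against 10.36 and 10.33, a difference of 0.62 (adjusted p = 0.106). Car2, the carbonic anhydrase of oligodendrocytes, was at 14.93 and 14.85 against 14.63 and 14.67, a difference of 0.24 (adjusted p = 0.333). Values for Mbp (-0.08), Mog (0.04), Mag (0.05), Cnp (0.04) and Olig2 (-0.07) were small beside SEs of 0.13 to 0.28, and Pdgfra differed by 0.13, Gpr17 by 0.31 and Myrf by -0.64. Markers of other cells differed here too. The endothelial markers were at 10.77 to 10.83 in 3xTgAD-BKO against 10.35 to 10.38 in 3xTgAD brains. The pericyte markers were at 10.71 to 10.85 against 10.36 to 10.49 and the microglial markers at 12.16 to 12.24 against 12.03 to 12.09. The other marker lists overlapped. The part of these cells in the members' differences was not tested.

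In males the same comparison gave lower values for several genes in hippocampus, without a call. In hippocampus 0.847% of all genes were called, and 6 members (16.7%) had an unadjusted p under 0.05 against 18.2% of all genes. Olig2 was at 9.99, 9.59 and 9.33 in 3xTgAD-BKO and at 10.34, 10.15 and 10.10 in 3xTgAD males, a difference of -0.56 (adjusted p = 0.117). Without 3xTgAD-BKO replicate 0 it was -0.74 and passed (adjusted p = 0.0419). A slide block brought it to -0.21, with Pdgfra at 0.39, Cldn11 at 1.13, Gjc3 at 1.23, Ugt8a at 1.13 and Gal3st1 at 0.63. That fit sets the 3xTgAD males against replicate 0, the array with many outlier spots, which alone shared their slide. With 1 array on that side, no call was taken from it. Hapln2 was at 8.48, 7.62 and 8.16 against 9.27, 9.01 and 8.75, a difference of -0.92 (adjusted p = 0.163). Gpr37, a receptor of mature oligodendrocytes, was at 12.06, 11.38 and 11.87 against 12.34, 12.34 and 12.21, a difference of -0.52 (adjusted p = 0.166). Mog (-0.78, SE 0.36), Mag (-0.53, SE 0.34), Cnp (-0.54, SE 0.35) and Myrf (-0.89, SE 0.60) did not pass, nor did Mbp (0.18), Pdgfra (0.14) and Gpr17 (0.09). Without 3xTgAD-BKO replicate 0 the differences were -1.12 for Hapln2 (adjusted p = 0.172), -0.67 for Gpr37 (adjusted p = 0.137), -1.16 for Mog, -0.90 for Mag, -0.98 for Cnp and -1.37 for Myrf (adjusted p of 0.156 or more for these 4). Mbp was then at 0.14, Pdgfra at 0.01 and Gpr17 at 0.04. Replicate 0 alone, set against the 3 3xTgAD males of its slide, gave -0.53 for Hapln2, -0.23 for Gpr37, -0.02 for Mog, 0.22 for Mag, 0.33 for Cnp and 0.06 for Myrf, with no test. The lower values of Mag and Cnp lay in replicates 8 and 9, which were on another slide than the 3xTgAD males. Markers of other cells differed in this comparison too. The 5 choroid plexus markers all had a difference below 0 (median -2.53), while 5 of 6 microglial markers (median 0.50), 5 of 5 meningeal fibroblast markers (0.81), 4 of 4 endothelial markers (0.59) and 4 of 4 pericyte markers (0.30) had one above 0. The endothelial marker Cldn5 was called at 1.09 (adjusted p = 0.0467). Their part in the members' differences was not tested.

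In brain of males 0.961% of all genes were called, and 11 members (30.6%) had an unadjusted p under 0.05 against 11.5% of all genes. Car2 was at 14.55, 14.27 and 14.45 against 14.67, 14.78 and 14.71, a difference of -0.30 (adjusted p = 0.139), the opposite sign to that in females. The 3xTgAD males lay on 1 slide and the 3 3xTgAD-BKO males on 3 slides, of which 1 was shared. With the slide as a block Car2 was at -0.45, Opalin at -1.82, Tspan2 at -0.71 and Aspa at -0.7. That fit sets 1 3xTgAD-BKO male (replicate 8) against the 3 3xTgAD males. It holds no spread between 3xTgAD-BKO males, so no call was taken from it. Nkx2-2 differed by 0.49 (adjusted p = 0.166), and its second probe by -0.32. Sox10 was at 12.69, 11.69 and 12.26 against 11.62, 11.31 and 11, a difference of 0.90 (adjusted p = 0.219). Olig2 differed by -0.36, Gpr17 by -0.28, Mbp by -0.18, Cnp by 0.28 and Mag by -0.11, while Mog was at 0.02, Myrf at 0.01 and Pdgfra at 0.00. The 1 3xTgAD-BKO male on the slide of the 3xTgAD males, set against those 3 with no test, gave -0.27 for Cnp, -0.38 for Mog, -1.70 for Myrf, -0.21 for Mag, -0.13 for Olig2, -0.34 for Gpr17, -0.01 for Mbp and 0.02 for Pdgfra, so that the sign of Cnp turned. It gave 0.38 for Sox10 and 0.44 for Nkx2-2. Markers of other cells differed too. The 3xTgAD-BKO brains lay at 10.71 to 11.11 against 10.51 to 10.59 for the endothelial markers and at 10.70 to 10.83 against 10.40 to 10.57 for the pericyte markers (4 of 4 above 0 in each), at 14.26 to 14.39 against 14.44 to 14.66 for the neuronal markers (5 of 9 below 0) and at 13.45 to 13.64 against 13.36 to 13.44 for the astrocyte markers (although 5 of 8 single markers were below 0). Their part in the members' differences was not tested.

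The difference between the sexes was tested directly, and no member passed, although Cspg4 did in hippocampus with dim probes left out. In hippocampus 0.0245% of all genes were called, and 4 members (11.1%) had an unadjusted p under 0.05 against 21.2%. Cspg4 (0.78, adjusted p = 0.0732), Nkx2-2 (0.64) and Olig1 (0.79) had the smallest p, where the value is the change in females minus that in males, and Nkx2-2 was at -0.09 with the mean of both probes. With the slide as a block the male change came from replicate 0 alone, the array with many outlier spots, so no call was taken from that fit. In brain 0.101% were called, and 6 members (16.7%) against 8.75% had an unadjusted p under 0.05, led by Car2 (0.54, adjusted p = 0.255), Gpr37 (0.47) and Bcas1 (0.48). With the slide block Car2 was at 0.69 in brain, where the male change came from replicate 8 alone, and no call was taken there either. Between the tissues of females 0.123% of all genes were called, and 2 members (5.56%) against 9.90% had an unadjusted p under 0.05. Ermn (-1.14, adjusted p = 0.449), Gpr37 (-0.58) and Cspg4 (0.76) came first, as the change in hippocampus minus that in brain. The Ermn value ran from -1.55 to -0.73 when 1 array was left out, and its second probe, almost as bright, changed by -0.21 in hippocampus and -0.07 in brain.

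Without the disease alleles, the loss of B cells was read from JHT against WT females, which lay on the same slides. No member was called. In hippocampus 0.0926% of all genes were called, and 2 members (5.56%) against 7.83% had an unadjusted p under 0.05. The smallest p were those of Gpr17 (-0.33, adjusted p = 0.611), Apod (0.52, adjusted p = 0.635) and Nkx2-2 (-0.29, adjusted p = 0.767). The median of the choroid plexus markers was 12.81 to 13.97 in the 2 JHT and 7.47 to 9.46 in the 3 WT hippocampi. In brain 0.161% of all genes were called, and again 2 members (5.56%) against 6.31% had an unadjusted p under 0.05. Cryab, a small heat shock protein of oligodendrocytes and astrocytes, was at 14.28 and 14.15 in JHT and at 14.75, 14.67 and 14.72 in WT females, a difference of -0.50 without overlap (SE 0.09, adjusted p = 0.11). Ugt8a differed by -0.34 and Car2 by -0.18, and the Ugt8a value was -0.07 without JHT replicate 14 and -0.60 without JHT replicate 13. The differences of Mbp, Mog, Mag and Cnp were -0.16, -0.20, -0.02 and -0.16 in hippocampus and 0.01, -0.08, -0.12 and 0.00 in brain. Those of Pdgfra, Olig2 and Myrf were 0.17, 0.27 and -0.16 in hippocampus and 0.10, 0.33 and -0.34 in brain, and Gpr17 differed by -0.28 in brain.

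The disease alleles on the B-cell-deficient background were read from 3xTgAD-BKO against JHT females, and 2 myelinating-stage genes were higher in brain. Cryab was at 14.81 and 14.82 in 3xTgAD-BKO and at 14.28 and 14.15 in JHT brains, a difference of 0.60 (SE 0.10, adjusted p = 0.0296). Car2 was at 14.93 and 14.85 against 14.40 and 14.29, a difference of 0.54 (SE 0.10, adjusted p = 0.0345). The groups did not overlap for either gene. Together they were 5.56% of the members, where 0.667% of all genes were called. The second Cryab probe differed by 0.32. Neither gene passed when the spread was estimated from these 2 groups alone (adjusted p = 0.254 and 0.259) or when 3xTgAD-BKO replicate 6, 3xTgAD-BKO replicate 7 or JHT replicate 14 was left out, and Car2 did not pass without JHT replicate 13 either (adjusted p = 0.0506). A slide block kept the call of Car2 and lost that of Cryab, whose difference was then larger (0.71, adjusted p = 0.115), but these groups lay on different slides, which that fit links only through 3xTgAD-BKO males 8 and 9. The endothelial markers were at 10.77 to 10.83 in these 3xTgAD-BKO and at 11.04 to 11.31 in the JHT brains (4 of 4 below 0), and the meningeal fibroblast markers at 10.01 to 10.68 against 9.48 to 9.96 (5 of 5 above 0), and their part in both differences was not tested. The JHT mice are the same as above, so the low Cryab value of those 2 brains enters both comparisons. For the 3xTgAD and 3xTgAD-BKO brains, Cryab lay between 14.51 and 14.82.

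In hippocampus no member was called in that comparison, where 0.229% of all genes were, and 2 members (5.56%) against 9.78% had an unadjusted p under 0.05. Cspg4 differed by 0.35 (adjusted p = 0.484), Olig1 by 0.57 (adjusted p = 0.509) and Cryab by 0.56 (adjusted p = 0.54). Pdgfra differed by 0.02, Gpr17 by 0.23, Olig2 by -0.16, Myrf by 0.42, Mbp by 0.02, Mog by 0.61, Mag by 0.19 and Cnp by 0.49, with SEs of 0.14 to 0.73. In brain the same 8 genes differed by 0.12, 0.42, -0.22, -0.41, 0.08, 0.07, 0.11 and -0.08. The value of -0.41 is that of Myrf, which was well above background on no array of either group there. None of the 33 further lineage genes was called between genotypes in any of these comparisons.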

How the data were processed

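Expression was measured on 1-colour Agilent arrays with Cy3-labelled RNA, 1 array per tissue and mouse. The intensity values were made by the authors with Feature Extraction 12.0.3.1, which corrected background and spatial trend, and were deposited without normalization between arrays. A table of deposited scores held the same arrays as Z scores within each array (largest median absolute difference 0.00254). The processed intensities of 55681 probes (of 62976 spots) were put on the log2 scale and quantile-normalized together over the 30 arrays, and each gene was read from its brightest probe on average. The study's methods name the same steps but start from raw probe intensities. Genes were named through the accessions of the array and RefSeq.

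Groups of tissue, genotype and sex were fitted with limma 3.58.1 (R 4.3.3), over 30 arrays for the tissues and 15 for the genotypes, with Benjamini-Hochberg adjustment over 36717 genes and transcripts. The fit was tested on simulated data with 200 changed genes. The members, lists and rules were chosen with earlier results of these data known. Named with values were 8 fixed members, the called members (or the 5 with the largest change in each direction) and, with none called, the 3 with the smallest p. Of 34 further lineage genes 33 were matched, and of 44 marker genes all. The arrays of a mouse correlated in their deviations from the group means by a median of 0.105 over 19491 genes (-0.18 to 0.24, 15 mice), against -0.0446 for different mice. Of the 15 pairs, 8 were above 0.1. Over the members alone the median for the arrays of a mouse was 0.31 (-0.3 to 0.82). The labels give both tissues of a mouse the same number, so the mouse number was a block in an alternative fit. Other alternatives changed the normalization, background correction, probe choice, dim-probe filter, slide, threshold and mice used. The number of mice limits the precision.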

Additional observations from a re-analysis of the deposited data

Results flagged for a closer look

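The highest or the lowest array of a group was compared with its nearest neighbour by Dixon's test. The groups were the 5 mice of a genotype in a tissue, with both sexes pooled. Only 3xTgAD and 3xTgAD-BKO mice were tested, and WT and JHT mice were not. Of 88 groups tested over the members named with values, 4 had such an array, and chance gives about 1 in 20, here 4.4.

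Nkx2-2 was at 8.03 in the hippocampus of 3xTgAD male replicate 3, above the other 4 3xTgAD mice at 7.21 to 7.37. In brain the same mouse was at 8.27, above the others at 7.66 to 7.78. Myrf was at 2.44 in the hippocampus of 3xTgAD-BKO male replicate 8, below the others at 4.59 to 5.20, and this probe was near background on many arrays. Olig1 was at 13.36 in the hippocampus of 3xTgAD female replicate 2, below the others at 13.65 to 13.73.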

How the results depend on the processing

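Between the tissues 23 to 34 members were called under every alternative, against 26 as reported, and leaving out each mouse gave 23 to 28. The share of all genes called changed too. It was 51.1% as reported, 18% with the slide as a block and 53.7% without the hippocampal array of 3xTgAD-BKO male replicate 0. With the mouse number as replicate block, which pairs the tissues of a mouse, 28 were called, Mog and Cnp being added, and no other call was changed by the pairing. In the difference between the tissues of the 3xTgAD-BKO change, 0 were called with and without that block. The genotype comparisons set different mice against each other and have no pairing. Normalization within each tissue turned Gpr17 and Pdgfra to -0.77 each, Mbp to -0.45 and Myrf to -0.34. Myrf was -0.22 in WT and JHT females alone, -2.17 with the slide as a block and 0.71 with 75th-percentile scaling, where it passed (adjusted p = 0.047).

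The single call of 3xTgAD against WT females fell to 0 members in both tissues with 75th-percentile scaling, the deposited value table, the mean of all probes, the methods' t-test after Benjamini-Hochberg adjustment and each left-out mouse (0 to 0). It was also 0 in hippocampus with normexp, without 3xTgAD-BKO male replicate 0 and without the 3 males of that group (the last 2 settings, like WT and JHT females alone, were chosen after seeing the data), and 0 in brain with only the groups compared. The unadjusted t-test called 3 in hippocampus (8.33% of the members, against 13.5% of all genes) and 5 in brain (13.9% against 13%). With the slide as a block Nkx2-2 was called in neither tissue, Cspg4 was called lower in hippocampus and 3 others (Opalin, Tspan2 and Aspa; 8.33% against 3.08%) higher in brain, and several values that were not called changed sign: in hippocampus Cnp -1.24, Mag -0.91, Mog -0.68, Myrf -0.71, Olig2 -0.20 and Pdgfra -0.20, and in brain Cnp 0.49, Gpr17 0.26, Mag 0.23, Mbp -0.05, Mog 0.46, Myrf 2.24 and Olig2 -0.45. In brain Myrf was 0.01 with 75th-percentile scaling and Mag 0.03 with normexp. Leaving out a mouse gave -0.28 to 0.41 for Cnp, -0.19 to 0.62 for Mag and -0.20 to 0 for Gpr17 in hippocampus, and -0.27 to 0.01 for Cnp, -0.17 to 0.06 for Mag, -0.18 to 0.07 for Mog and -0.57 to 0.22 for Myrf in brain.

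For 3xTgAD-BKO against 3xTgAD females, where 0 were called, 1 (Cspg4) was called in hippocampus with the slide block, without male replicate 0 and without the 3 males, and 1 (Nkx2-2) in brain at an adjusted p of 0.1, with normexp and with the filter on dim probes. In the fits as reported 0.370% of all genes were called in hippocampus and 1.12% in brain, and an adjusted p of 0.1 admits at least as many. The unadjusted t-test called 2 (5.56% against 13.3%) and 6 (16.7% against 17.7%). With both sexes together Car2 was -0.08 in brain. In males the fit of all 30 arrays called 4 in hippocampus (11.1% against 5.16% of all genes). The unadjusted t-test called 1 there (2.78% against 10.8%) and 2 in brain (5.56% against 8.32%). Left-out mice gave 0 to 1 in each tissue (Olig2 without 3xTgAD-BKO replicate 0, Nkx2-2 without 3xTgAD replicate 3 and Tspan2 without 3xTgAD-BKO replicate 9). With all mice, 0.847% of all genes were called in hippocampus and 0.961% in brain. No call was taken from the slide block in males, which rests on 1 3xTgAD-BKO array in each tissue. For the difference between the sexes 1 (Cspg4) was called in hippocampus at an adjusted p of 0.1 and with the dim-probe filter (2.78% against 7.2% and 6.66%). The slide block of that difference rests on the same lone male arrays, and no call was taken from it. Nkx2-2 was -0.09 in hippocampus with the mean of all probes.

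For JHT against WT females the unadjusted t-test called 3 in hippocampus (8.33% against 9.28%) and 4 in brain (11.1% against 5.76%). For 3xTgAD-BKO against JHT females in brain, the 2 calls fell to 0 with 75th-percentile scaling, all 30 arrays, the deposited table, the adjusted t-test and only the groups compared, to 1 (Car2) with the mean of all probes and to 0 to 2 with left-out mice, and the unadjusted t-test called 7 (19.4% against 15.9%). The slide block called 2 there, Car2 and Opalin. In hippocampus that test called 3 (8.33% against 8.28%) and the slide block 1 (2.78% against 7.96%), with Cryab at -0.07 and Olig1 at -0.14. The slide block compares males through 1 3xTgAD-BKO array per tissue, and links the other slides through arrays of that group alone. The cause of these changes was not tested, and groups of 2 or 3 mice limit every comparison of genotypes.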
